A study of Mus musculus with 18 samples.

Results

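The transcription factor ATF4 and 9 genes of its stress programme were followed across bulk RNA sequencing of CD8+ T cells from mice: Atf4, Atf5, Ddit3, Asns, Chac1, Trib3, Pck2, Eif4ebp1, Sesn2 and Vldlr. They were found by symbol in the GENCODE M21 annotation and are 10 of the 55536 Ensembl genes in the deposited count table. Ddit3 has 2 identifiers there, and the second (ENSMUSG00000116429.1, 105 exonic bases inside the Ddit3 locus) held between 0 and 3 counts per library and was not analysed further. The genes were proposed with the difference between Tra2bKO and control libraries already known, so their values in that comparison are given as a description, without a test.

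Of the 18 libraries 2 were labelled Tra2bKO (a knockout of the splicing regulator gene Tra2b), 8 control (cells given a scrambled sequence) and 8 naive. All came from spleen and lymph nodes and carry the OT-I genotype, a transgenic T cell receptor for the ovalbumin peptide SIINFEKL. Tra2bKO and control cells were collected at day 4 after stimulation with that peptide plus antibodies against OX40 and 4-1BB, both costimulatory receptors, and naive cells at day 0. The labels do not state how Tra2b was disrupted, nor whether each library had its own animal, so p-values speak only to library-to-library spread, part of which may be technical. Total counts ran from 79197461 to 93495846 in the Tra2bKO libraries, from 73735681 to 93972513 in the controls and from 68249844 to 86932452 in the naive libraries. Tra2b itself stood at 361 and 371 CPM, counts scaled to a fixed library total, in the Tra2bKO libraries and between 338 and 526 CPM in the controls, so the groups overlap and the count is no check of the label. Summed T cell markers (Cd3d, Cd3e, Cd3g, Cd8a and Cd8b1) were at 2656 and 3078 CPM in the Tra2bKO libraries, 2376 to 2968 CPM among controls and 4337 to 5243 CPM among naive libraries.

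ATF4 is the main effector of the integrated stress response. When amino acids run short, unfolded protein accumulates in the endoplasmic reticulum, or haem or mitochondrial function fails, one of several kinases phosphorylates the initiation factor eIF2, general translation slows, and the Atf4 mRNA, which carries upstream reading frames, is translated better. ATF4 then pairs with C/EBP factors on a composite DNA element and induces genes for amino acid synthesis, uptake and tRNA charging, and, if the stress persists, genes linked to cell death. In activated T cells this programme is known to support the supply of amino acids during growth.

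The composite element was searched for as TGATGNAAN, on both strands, in the RefSeq promoter windows (GRCm38.p6), each running from 250 bases before to 50 bases after a start site. Of the 10 genes 9 had a window, 11 windows in all, and Eif4ebp1 had none. The element was found in 5 windows, of 5 genes, against 3.95% of all 32851 windows. It occurred once each for Asns, Chac1, Trib3, Pck2 and the downstream start of Vldlr, and these letters were not found in the windows of Atf4, Atf5, Ddit3 or Sesn2. The 5 matches are shown with 10 bases on either side because they are a sequence feature that these 5 genes share. Each is read 5′ to 3′ on the strand that spells the element, in capitals.
Asns, chr6:7693214-7693242, minus strand: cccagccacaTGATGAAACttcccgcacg
Chac1, chr2:119351038-119351066, minus strand: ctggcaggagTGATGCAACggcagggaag
Trib3, chr2:152344029-152344057, plus strand: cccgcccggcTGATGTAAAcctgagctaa
Pck2, chr14:55540152-55540180, minus strand: tgtaagatacTGATGTAACtttgaaggct
Vldlr, chr19:27216809-27216837, minus strand: ctaggagcgcTGATGCAACtattgctgct
Counted from the RefSeq start, the Asns match covers bases -23 to -15, Chac1 -194 to -186, Trib3 14 to 22, Pck2 -104 to -96 and Vldlr -201 to -193. In GENCODE M21 the Asns match lies inside the first exon, 22 bases after the gene's start, because that annotation starts the gene further upstream, whereas the Trib3 match lies 15 bases before the gene's start. The Vldlr match lies inside an exon of the longer Vldlr transcripts. The cyclic AMP response element TGACGTCA, which single ATF and CREB dimers bind, was found in 0 of the 11 windows, against 1.79% of all windows. A match describes the letters only and does not show that a factor binds there.

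**Figure D1:**
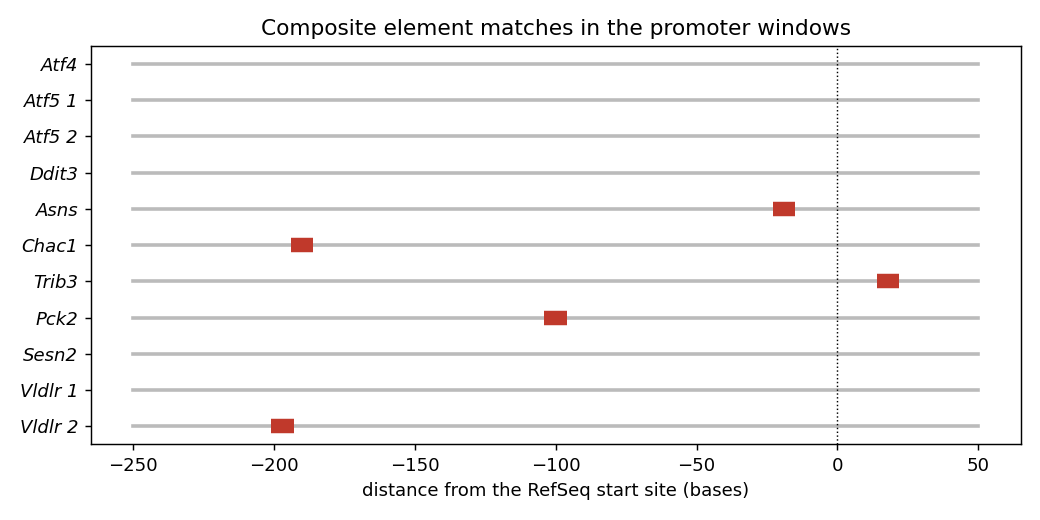
Positions of the composite element matches (red blocks) in the RefSeq promoter windows of the members, one line per window, against distance from the start site in bases (dotted line at the start). Asns, Chac1, Trib3, Pck2 and the second Vldlr window have 1 match each, from -201 to 22, and the other windows have none.

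Among the transcription factors, Atf4 was highest in the Tra2bKO libraries, and Ddit3 was highest in the naive ones. Atf4 (chromosome 15, 80255184 to 80257541, plus strand, GRCm38) stood at 190.4 and 171.5 CPM in the Tra2bKO libraries, at 119 to 132 CPM in the controls (median 123) and at 94.1 to 114 CPM in the naive libraries (median 111). The 3 groups did not overlap. In Tra2bKO over control its log2 fold change was 0.54 (SE 0.06), a 1.45-fold higher level. Control libraries exceeded naive ones by 1.16-fold, or 0.21 on the log2 scale (SE 0.05; adjusted p = 0.000426 by the quasi-likelihood test of edgeR, adjusted over all genes by the Benjamini-Hochberg method). Ddit3 encodes CHOP, a C/EBP-family factor induced by ATF4 and known for promoting death under lasting stress. Its level (chromosome 10, 127290774 to 127296288) was 9.22 and 10.01 CPM in the Tra2bKO libraries, 6.31 to 10.4 CPM in the controls (median 6.98) and 17.01 to 22.04 CPM in the naive libraries (median 20.2). Both Tra2bKO values lay within the control range, since control 4 reached 10.4 CPM while the next control stood at 7.78 CPM. The fitted log2 fold change was 0.39 (SE 0.17) in Tra2bKO over control. Ddit3 was lower in control than in naive libraries (log2 difference -1.43, SE 0.10, adjusted p = 4.6e-10, edgeR), with no overlap, and the Tra2bKO libraries also lay below every naive library. The 3′ end of Ddit3 overlaps Mars on the opposite strand, Atf5 overlaps Il4i1 and Nup62, Pck2 overlaps Gm10876, and Sesn2 overlaps Gm12981 on its own strand. Whether counting used the strand is not given in the sources used here, so reads of these pairs may be mixed. Atf5, a relative of ATF4 that is translated in the same manner, was scarce, with 23 to 87 counts per library. It stood at 0.719 and 0.340 CPM in the Tra2bKO libraries, 0.356 to 0.988 CPM in the controls and 0.317 to 1.14 CPM in the naive libraries, with full overlap (control against naive log2 fold change -0.33, SE 0.26, adjusted p = 0.267, edgeR).

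Asns and Pck2 showed the largest differences among the enzymes with ample counts. Asns, asparagine synthetase, is a classical target of the amino acid response (chromosome 6, 7675169 to 7693254, minus strand). It stood at 193 and 183 CPM in the Tra2bKO libraries, 25 to 64.4 CPM in the controls (median 38.9) and 5.06 to 21.2 CPM in the naive libraries (median 10.6). The groups did not overlap at either step, and control 1 was the highest control. The log2 fold change was 2.24 (SE 0.22) in Tra2bKO over control, 4.72-fold, and 1.88 (SE 0.26, adjusted p = 4.34e-06, edgeR) in control over naive, 3.69-fold. Pck2, the mitochondrial phosphoenolpyruvate carboxykinase (chromosome 14, 55540266 to 55551242, plus strand), was higher in the Tra2bKO libraries than in either other group. Its level was 46.0 and 51.8 CPM in the Tra2bKO libraries, 8.43 to 11.3 CPM in the controls (median 9.90) and 8.57 to 12.9 CPM in the naive libraries (median 12.2). Control and naive libraries overlapped, and both Tra2bKO libraries lay above all of them. The log2 fold change was 2.32 (SE 0.12) in Tra2bKO over control and -0.21 (SE 0.10, adjusted p = 0.0753, edgeR) in control over naive. The difference between control and naive passed at -0.31 with total counts as the only scaling (adjusted p = 0.0147), at -0.25 without naive 3 (adjusted p = 0.0306) and at -0.26 without naive 4 (adjusted p = 0.0308). Chac1, a glutathione-degrading enzyme (chromosome 2, 119351229 to 119354381, plus strand), had the largest fitted change of the members and few reads. Its counts were 150 and 311 in the Tra2bKO libraries, 6 to 28 among controls and 0 to 39 among naive libraries. Scaled, these were 1.93 and 3.41 CPM in the Tra2bKO libraries, 0.0859 to 0.332 CPM in the controls (median 0.231) and 0 to 0.516 CPM in the naive libraries (median 0.138). The Tra2bKO libraries stood above all others, and control and naive libraries overlapped. Naive 4 and naive 7 had no count, which allows up to 0.0399 and 0.0409 CPM (3 counts, counting error only). The log2 fold change of Chac1 was 3.47 (SE 0.35) in Tra2bKO over control, 11.1-fold, and 0.21 (SE 0.57, adjusted p = 0.749, edgeR) in control over naive.

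The genes that feed back on growth signalling and translation were also higher in the Tra2bKO libraries. Trib3 is a pseudokinase that restrains AKT and ATF4 activity (chromosome 2, 152337422 to 152344032, minus strand). It stood at 14.2 and 15.3 CPM in the Tra2bKO libraries, 2.07 to 4.66 CPM in the controls (median 4.07) and 0.996 to 3.72 CPM in the naive libraries (median 1.85). Control 2 was the lowest control at 2.07 CPM, and the next stood at 3.59 CPM, both inside the naive range. Its log2 fold change was 1.93 (SE 0.20) in Tra2bKO over control and 0.89 (SE 0.24, adjusted p = 0.00294, edgeR) in control over naive. Eif4ebp1 encodes a repressor of cap-dependent translation that mTORC1 inactivates (chromosome 8, 27260329 to 27276674, plus strand). The 2 Tra2bKO libraries were nearly equal, at 55.2 and 53.9 CPM, against 11.9 to 17.8 CPM in the controls (median 14.4), and the naive libraries held 11.3 to 15.0 CPM (median 13.1). Its log2 fold change was 1.93 (SE 0.14) in Tra2bKO over control and 0.14 (SE 0.09, adjusted p = 0.196, edgeR) in control over naive. Sesn2, a leucine-sensing inhibitor of mTORC1 that is also known as a p53 target (chromosome 4, 132492032 to 132510501, minus strand), stood at 34.4 and 41.9 CPM in the Tra2bKO libraries. The controls held 18.01 to 28.5 CPM (median 23.9) and the naive libraries 11.9 to 18.3 CPM (median 14.5), so control and naive ranges overlapped narrowly and the Tra2bKO libraries lay above both. The log2 fold change of Sesn2 was 0.69 (SE 0.15) in Tra2bKO over control and 0.68 (SE 0.11, adjusted p = 1.5e-05, edgeR) in control over naive. Vldlr, a lipoprotein receptor that ATF4 induces in other cells, had 7 counts in Tra2bKO library 2 and none in the other 17 libraries, each of which allows up to 0.033 to 0.0429 CPM. It did not pass the low-count filter, and no fold change is given.

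**Figure D2:**
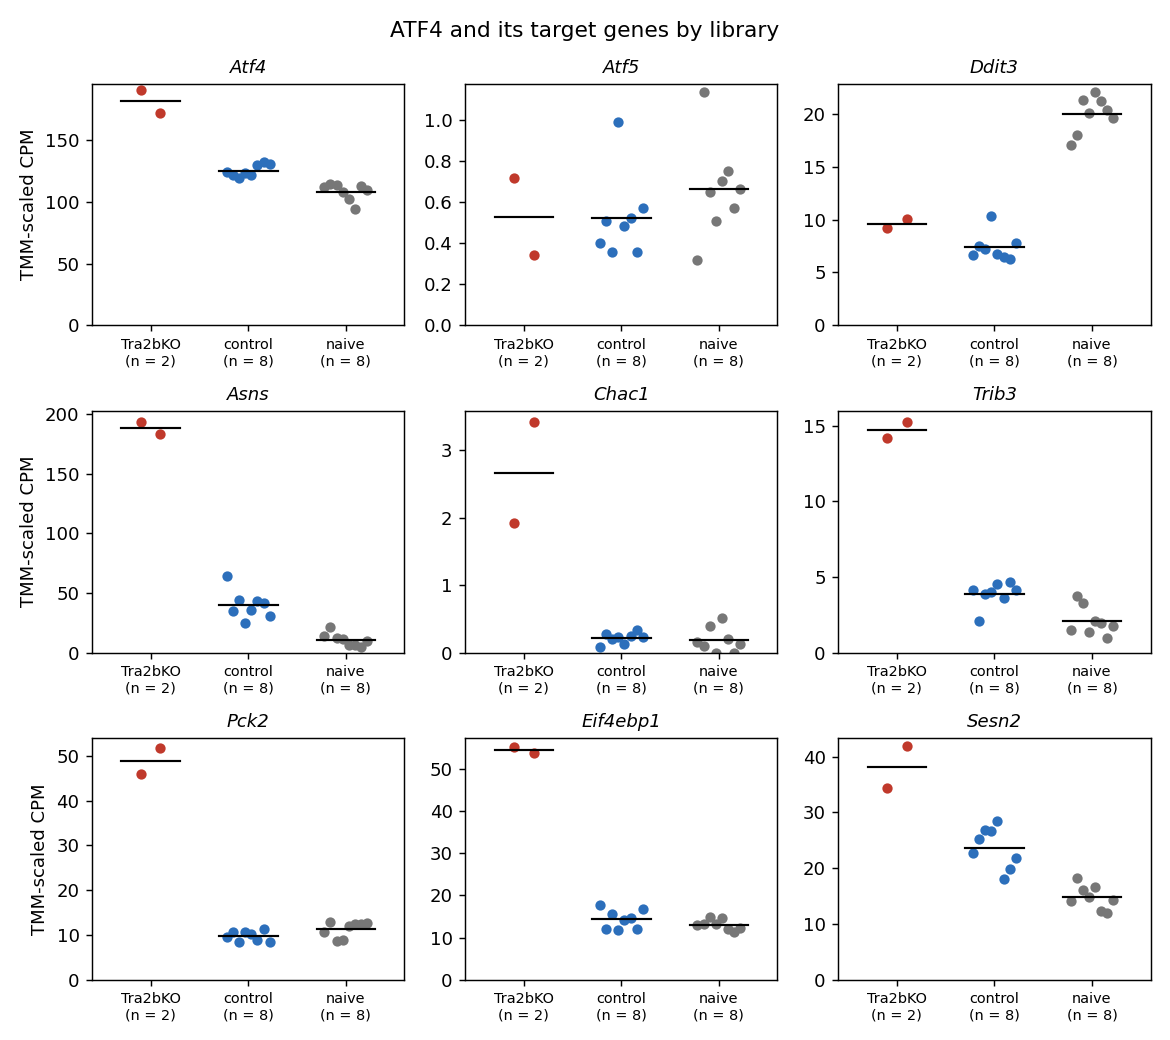
TMM-scaled CPM of the 9 members with enough counts, one point per library and a bar at the group mean, for Tra2bKO (red, n = 2), control (blue, n = 8) and naive (grey, n = 8), on linear axes from 0. Asns runs from 183 to 193 CPM in Tra2bKO, 25 to 64.4 CPM in control and 5.06 to 21.2 CPM in naive libraries, whereas Ddit3 is highest in the naive libraries at 17.01 to 22.04 CPM.

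Across the members, 9 of 10 passed the low-count filter in each comparison. In Tra2bKO against control 7 of the 9 had both Tra2bKO libraries above every control and none had both below, while 10.9% of all 18651 genes tested lay above, 12.9% below and 23.8% either way. The members were chosen on this difference, so nothing is read from the count. The median log2 fold change of the 9 was 1.93, and that of all genes tested was -0.01. The 2 others, Atf5 and Ddit3, are transcription factors. With Tra2bKO library 1 alone the fitted log2 fold changes of Atf4, Chac1, Sesn2 and Atf5 were 0.62, 3.02, 0.55 and 0.45. With library 2 alone they were 0.45, 3.82, 0.81 and -0.59. Whether control against naive also guided the choice of members is not stated. In that comparison 4 of 9 were called higher (Atf4, Asns, Trib3 and Sesn2) and 1 lower (Ddit3). Of the 17078 genes tested, 32.5% were higher and 39.0% lower. The 5 of 9 called there stand beside 71.5% of all genes called in either direction. Atf4 and Asns were higher and Ddit3 lower with no overlap of the libraries, beside 20.1% higher, 22.2% lower and 42.3% either way over all genes. The median log2 fold change was 0.21 for the 9 and -0.08 for all genes. Both comparisons share the control libraries.

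**Figure D3:**
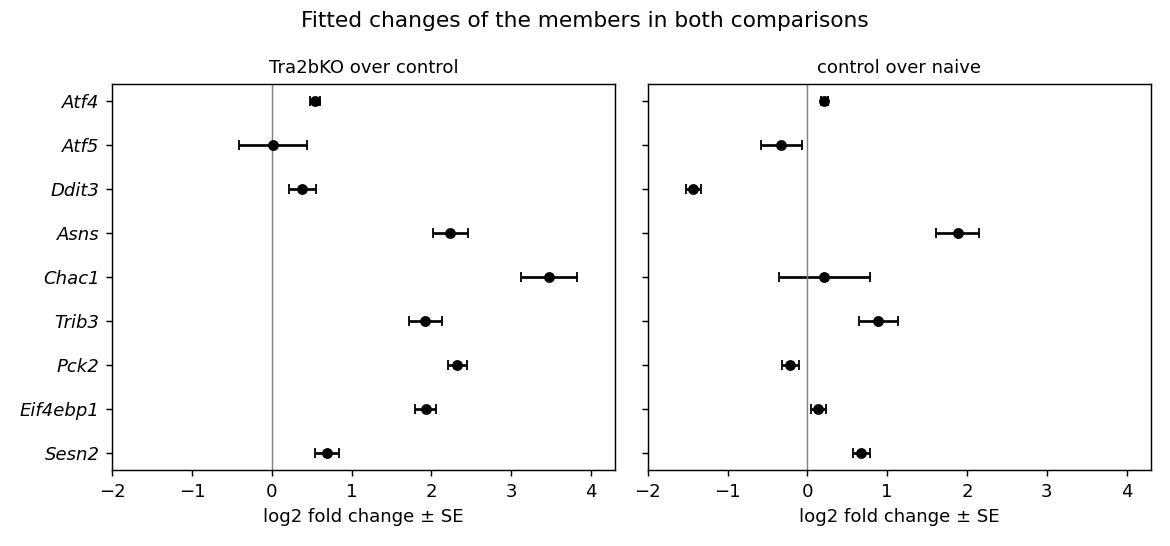
Fitted log2 fold change (point) and its standard error (bar) of the 9 members, for Tra2bKO over control (left) and control over naive (right), with a line at 0. In the left panel 7 members lie between 0.54 and 3.47, while in the right panel Asns is highest at 1.88 and Ddit3 lowest at -1.43.

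Control and naive libraries also differed in markers of other cells, and in bulk libraries fewer cells of a type and less RNA per cell cannot be told apart. Of the 5 B cell markers tested (from Ms4a1, Cd79a, Cd79b, Pax5, H2-Ab1 and Cd74) all 5 were lower in the controls. The summed level of the list ran from 117 to 395 CPM among controls and from 846.5 to 2499 CPM among naive libraries. Most of each sum was Cd74 (means 183.1 CPM in control, 1078 CPM in naive libraries) and H2-Ab1 (33.17 and 619.1 CPM). Cd79b averaged 7.272 and 25.37 CPM, Cd79a 0.6622 and 3.219 CPM, and Ms4a1 0.3487 and 2.87 CPM. NK cell markers (3 of 3 lower) summed to 3.36 to 12.3 CPM among controls and 35.3 to 66.9 CPM among naive libraries, and dendritic cell markers (3 of 3 tested lower) to 15.5 to 35.2 CPM among controls and 55.5 to 124 CPM among naive libraries. Macrophage and monocyte markers (3 of 3 lower) and granulocyte markers (2 of 2 lower) went the same way. Their part in the member differences between control and naive was not tested. Between Tra2bKO and control, none of these 3 lists had a called gene, but 2 of their sums did not overlap. B cell markers summed to 73.1 and 95.4 CPM in the Tra2bKO libraries, below every control (117 to 395 CPM). Cd74 and H2-Ab1 again made up most of the sum, at means of 68.27 and 10.63 CPM in the Tra2bKO libraries. Cd79b averaged 4.506 CPM in Tra2bKO and 7.272 CPM in control libraries. Cd79a (0.5398 and 0.6622 CPM) and Ms4a1 (0.2859 and 0.3487 CPM) were scarce and differed little. Dendritic cell markers summed to 37.2 and 49.3 CPM in the Tra2bKO libraries, above every control (15.5 to 35.2 CPM), with Siglech, a plasmacytoid dendritic cell marker, at 0 in both groups. Nearly all of that sum was Itgax, with means of 41.15 CPM in Tra2bKO and 23.44 CPM in control libraries. Xcr1 went the other way, at 1.84 and 3.67 CPM, and Flt3 was scarce, at 0.2702 and 0.1811 CPM. The dendritic markers thus did not rise as a set. Red cell markers (Hbb-bs and Hba-a1) were at 7.81 and 76.0 CPM in the Tra2bKO libraries and 0.188 to 10.6 CPM in the controls, with 2 of 2 called higher. Macrophage and monocyte markers summed to 26.6 and 52.3 CPM in the Tra2bKO libraries and 4.86 to 27.7 CPM in the controls, with 0 of 3 called. Granulocyte markers summed to 1.38 and 1.89 CPM in the Tra2bKO libraries and 0 to 1.76 CPM in the controls, with 0 of 2 called, and Cd4 stood at 0.205 and 0.692 CPM in the Tra2bKO libraries and 0 to 0.603 CPM in the controls. The part of these lists in the member differences was not tested.

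Scaled per transcript length (TPM), the members ranked differently in the 3 groups. Atf4 and Asns led in the Tra2bKO libraries, at 177 to 179 and 163 to 164 TPM, and these ranges did not overlap. Eif4ebp1 followed at 46.6 to 48.3 TPM, then Pck2 at 21.8 to 31.5 TPM, then Sesn2 at 16.7 to 21.6 TPM and Ddit3 at 17.6 to 20.2 TPM, which overlapped, then Trib3 at 11.9 to 13.5 TPM. In the controls Atf4 stood at 111 to 123 TPM and Asns at 20.6 to 50.1 TPM. Below them Ddit3 (11.6 to 19.4 TPM), Eif4ebp1 (9.74 to 13.8 TPM) and Sesn2 (8.54 to 13.5 TPM) overlapped one another, while Pck2 (4.02 to 6.60 TPM) and Trib3 (1.75 to 3.82 TPM) each stood apart from their neighbours. In the naive libraries Ddit3 was second to Atf4, at 33.3 to 43.6 TPM against 96.2 to 116 TPM, and Asns, at 4.62 to 18.7 TPM, overlapped Eif4ebp1 (10.3 to 13.0 TPM), Sesn2 (6.23 to 9.22 TPM) and Pck2 (4.90 to 7.66 TPM). Chac1 and Atf5 were the lowest of the 9 in each group, both under 1.2 TPM except Chac1 in the Tra2bKO libraries, at 1.99 and 3.73 TPM.

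Retained-intron transcripts of Atf4 and Ddit3, which are not annotated as coding, took a varying part of the counts. The coding transcript Atf4-201 held most of the gene, and Atf4-203, annotated as retaining an intron, held 26.3% and 6.14% in the Tra2bKO libraries, 4.89 to 20.3% in the controls (median 9.25%) and 8.72 to 14.6% in the naive libraries (median 10.1%). The 2 Tra2bKO libraries thus lay on opposite sides of the control median, and the groups overlapped. Ddit3-202, also annotated with a retained intron, held 11 and 14.8% in the Tra2bKO libraries, 3.66 to 12.4% in the controls (median 7.54%) and 5.31 to 8.01% in the naive libraries (median 6.89%). All annotated retained-intron transcripts of the genome together took 3.65 and 3.66% of the counts in the Tra2bKO libraries, 3.10 to 3.82% among controls and 5.22 to 6.16% among naive libraries. Asns, Trib3, Eif4ebp1 and Sesn2 were carried almost wholly by a single coding transcript, save in naive 7, where Trib3-201 held 86.3% of only 73 Trib3 counts. Pck2 was split among several, and Pck2-201 ran from 40.8 to 72.9% in the Tra2bKO libraries, 24.3 to 72.6% among controls and 18.1 to 63.8% among naive libraries. Of 10 member transcripts tested between control and naive, 1 passed: Asns-201 held 99.9 ± 0.0521% in the controls and 99.7 ± 0.0886% in the naive libraries (SD, n = 8 each; difference 0.17 percentage points, exact two-sided permutation p = 0.000777, adjusted p = 0.00777 over the 10). Each naive library had only 371 to 1628 Asns counts to divide among transcripts, and each control library 1974 to 4497. At these totals the part outside Asns-201 was a few reads per library. The share test therefore cannot tell a change in transcript use from the difference in Asns level. Shares of overlapping transcripts are estimates and are uncertain beyond counting error.

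**Figure D4:**
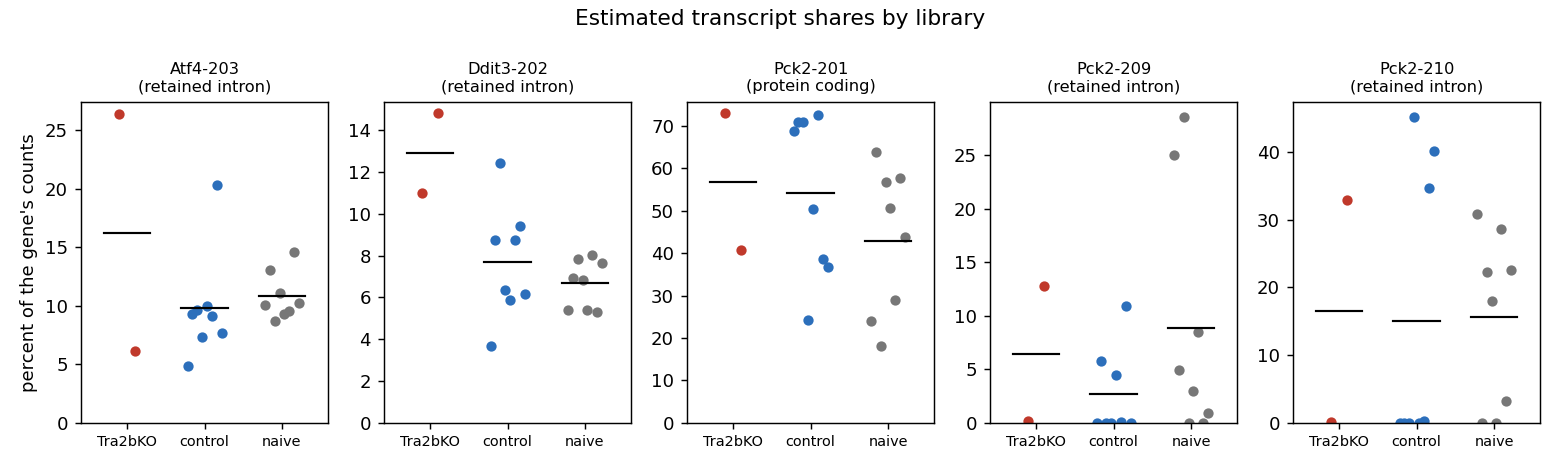
Percent of the gene's counts held by the retained-intron transcripts that were tested and by Pck2-201, one point per library and a bar at the group mean, for Tra2bKO (red, n = 2), control (blue, n = 8) and naive (grey, n = 8). Atf4-203 stands at 26.3 and 6.14% in the Tra2bKO libraries and at 4.89 to 20.3% in the controls, and Pck2-201 spans most of its range in every group.

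Other genes that ATF4 is known to induce, from a list of 46 that holds none of the members, rose in part in the Tra2bKO libraries. This list, like the other gene lists below, was chosen with earlier results of these data known. Its counts and p-values are therefore no independent check on the members. Of 43 that passed the low-count filter 18 were called higher and 1 lower in Tra2bKO against control (adjusted p under 0.05, edgeR). Over all genes tested 7.62% were higher, 7.24% lower and 14.9% called in either direction. These shares also stand beside the counts of the separate lists in this comparison below. The median log2 fold change was 0.28 for the 43 and -0.01 for all genes. The number called higher was 7 without Tra2bKO library 2 and 13 without library 1.

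Amino acid transporters had the largest of these rises, with 6 of 9 called higher and none lower. Slc7a3, a carrier of arginine and lysine, stood at 21.7 and 21.4 CPM in the Tra2bKO libraries, against 1.15 to 3.6 CPM in the controls, which is 3.24 on the log2 scale (SE 0.31, adjusted p = 0.000143, edgeR). Slc1a4, a carrier of serine and alanine, stood at 12.6 and 20.7 CPM, against 2.21 to 4.33 CPM in the controls (2.44, SE 0.24, adjusted p = 0.000155, edgeR). The glycine carrier Slc6a9 was near the limit of detection in the controls, at 0 to 0.476 CPM, and reached 2.35 and 3.28 CPM in the Tra2bKO libraries (log2 difference 3.44, SE 0.61, adjusted p = 0.00366, edgeR), a call that was lost without Tra2bKO library 2. All 3 were above every control and every naive library in both Tra2bKO libraries. The abundant heavy chain Slc3a2 rose less, with 223 and 218 CPM against 144 to 187 CPM in the controls (0.46, SE 0.08, adjusted p = 0.00429, edgeR).

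Among 10 enzymes of amino acid and one-carbon metabolism 4 were called higher in Tra2bKO against control and none lower. The alanine aminotransferase Gpt2 stood at 8.01 and 11.4 CPM in the Tra2bKO libraries, against 0.697 to 3.39 CPM in the controls (log2 difference 2.54, SE 0.38, adjusted p = 0.00158, edgeR). Cth, which makes cysteine from cystathionine, stood at 3.20 and 2.20 CPM, against 0.208 to 0.787 CPM (2.55, SE 0.41, adjusted p = 0.00241, edgeR). The mitochondrial folate enzymes Mthfd2 and Shmt2 rose by log2 fold changes of 0.43 (SE 0.07, adjusted p = 0.00287) and 0.40 (SE 0.10, adjusted p = 0.0238, edgeR), and Shmt2 was not called without either Tra2bKO library. The first enzymes of serine synthesis did not pass, with Psat1 at 0.18 (SE 0.07, adjusted p = 0.1) and Phgdh at 0.08 (SE 0.09, adjusted p = 0.6, edgeR). Of 13 genes of tRNA charging and export 5 were higher, such as Nars at 0.54 (SE 0.09, adjusted p = 0.00303) and Tars at 0.40 (SE 0.07, adjusted p = 0.00413, edgeR), although Tars was not called without Tra2bKO library 2. The leucyl-tRNA synthetase Lars was the single gene of the 43 called lower, with 46.9 and 55.4 CPM in the Tra2bKO libraries, against 111 to 147 CPM in the controls (log2 difference -1.37, SE 0.11, adjusted p = 4.99e-05, edgeR). The Tra2bKO libraries lay below the naive ones for Lars too, which held 90.1 to 115 CPM.

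Of 11 stress regulators tested 3 were called higher in Tra2bKO against control: Nupr1, Stc2 and Sqstm1. Nupr1, a small chromatin protein of the stress response, stood at 1.82 and 1.71 CPM in the Tra2bKO libraries, against 0.315 to 0.953 CPM in the controls (log2 difference 1.52, SE 0.33, adjusted p = 0.0104, edgeR). The secreted Stc2 was near the limit of detection in the controls, at 0 to 0.429 CPM, and stood at 1.03 and 1.48 CPM in the Tra2bKO libraries. The naive libraries held 0.231 to 1.24 CPM of Stc2 and overlapped the Tra2bKO ones. Its log2 difference between Tra2bKO and control was 2.75 (SE 0.77, adjusted p = 0.0322, edgeR). The autophagy receptor Sqstm1 differed by 0.24 (SE 0.07, adjusted p = 0.041, edgeR). None of these 3 was called without Tra2bKO library 1 or without library 2, and Stc2 was not called without control 6 or without control 8. Sqstm1 was also not called without control 2, 3, 6, 7 or 8, without the low-count filter, with controls 3 to 8 only or with all 3 groups in one fit, and Nupr1 was not called in that last fit either. The eIF2 phosphatase subunit Ppp1r15a, a textbook target of ATF4 and CHOP, did not pass (0.22, SE 0.15, adjusted p = 0.388, edgeR), nor did Atf3 (0.63, SE 0.97, adjusted p = 0.723, edgeR).

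**Figure D5:**
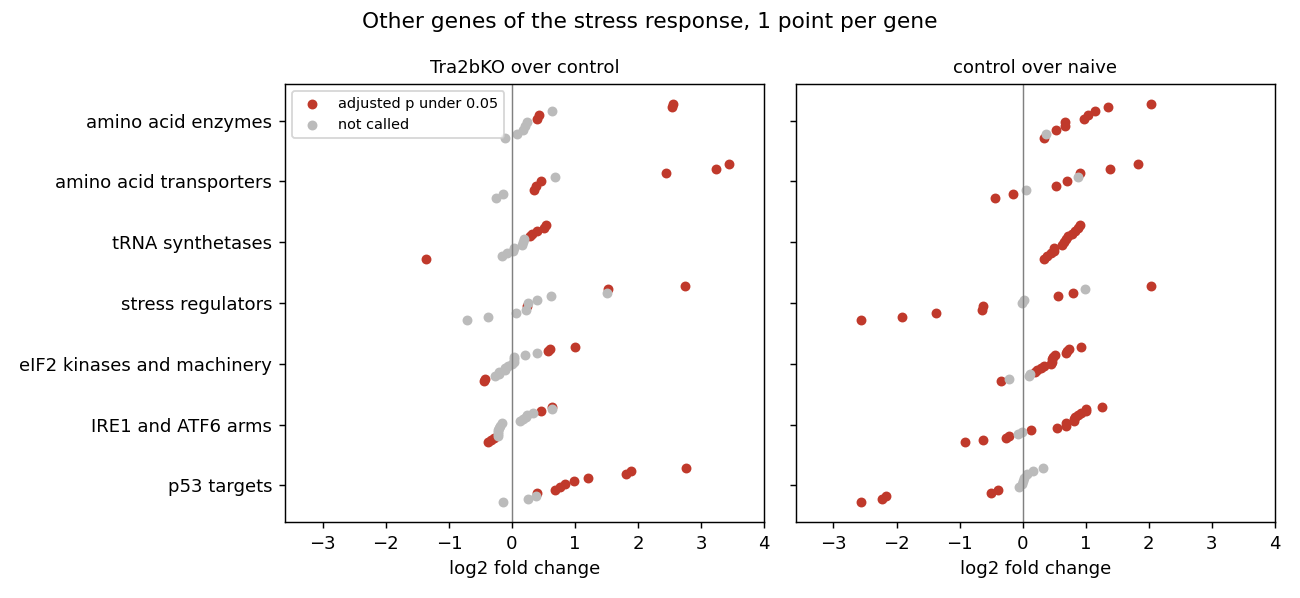
Log2 fold change of each tested gene of the lists, 1 point per gene and 1 row per list, for Tra2bKO over control (left) and control over naive (right), red where adjusted p was under 0.05 and grey otherwise. In the left panel 3 transporters lie between 2.44 and 3.44, Lars lies at -1.37, and 9 of 12 p53 targets are red and to the right of 0.

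Genes of the other arms of the unfolded protein response did not rise with the ATF4 targets as a list. Of 18 genes of the IRE1 and ATF6 arms 2 were higher and 3 lower in Tra2bKO against control, with a median log2 fold change of -0.17. Over all genes tested 7.62% were higher and 7.24% lower. The sensor Atf6 rose by 0.64 (SE 0.12, adjusted p = 0.00545) and the chaperones Pdia6 and Calr fell by 0.38 (SE 0.08, adjusted p = 0.00762) and 0.28 (SE 0.06, adjusted p = 0.008, edgeR), and all 3 calls were lost without Tra2bKO library 2, those of Pdia6 and Calr also with all 3 groups in one fit. The main chaperone Hspa5 stood at 1743 and 1650 CPM in the Tra2bKO libraries, against 1694 to 2241 CPM in the controls (-0.22, SE 0.08, adjusted p = 0.0963, edgeR). Among 17 genes of eIF2, its kinases and their partners 3 were higher and 2 lower, with a median log2 fold change of -0.0046. The kinase Eif2ak4, GCN2, which senses uncharged tRNA, stood at 23.6 and 32.5 CPM, against 15.99 to 21.04 CPM in the controls (0.58, SE 0.13, adjusted p = 0.0126, edgeR). Ppp1r15b, the constitutive eIF2 phosphatase subunit, differed between the Tra2bKO libraries, at 87.3 and 178 CPM, against 49.6 to 77.4 CPM in the controls (2.0-fold by the fit, adjusted p = 0.00587, edgeR). Neither was called without Tra2bKO library 2. The PERK kinase gene Eif2ak3 differed by -0.21 (SE 0.23, adjusted p = 0.606, edgeR).

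Targets of p53, which share Sesn2 with the ATF4 programme, were higher in the same libraries. Of 12 tested 9 were called higher in Tra2bKO against control and none lower (median log2 fold change 0.80). Over all genes tested 7.62% were higher and 7.24% lower. Phlda3, an inhibitor of AKT, stood at 15.6 and 17.1 CPM in the Tra2bKO libraries, against 1.51 to 3.76 CPM in the controls (2.76, SE 0.24, adjusted p = 8.23e-05, edgeR), and the cyclin Ccng1 at 355 and 384 CPM, against 139 to 200.1 CPM (1.21, SE 0.10, adjusted p = 5.03e-05, edgeR). The other p53-linked sestrin, Sesn1, stood at 20.9 and 19.8 CPM, inside the control range of 17.0 to 29.1 CPM, unlike Sesn2. Of 12 relatives of the members tested, 1 was higher and 1 lower, beside 14.9% called in either direction over all genes. Trib1, a paralogue of Trib3, fell to 4.93 and 4.33 CPM in the Tra2bKO libraries, against 6.71 to 13.0 CPM in the controls (-1.15, SE 0.26, adjusted p = 0.0133, edgeR), a call lost without Tra2bKO library 2. Trib2 (0.66, SE 0.21, adjusted p = 0.0572) and Chac2, a paralogue of Chac1 (0.44, SE 0.15, adjusted p = 0.0762, edgeR), did not pass. Trib2 was called higher under DESeq2, with all 3 groups in one fit, and without Tra2bKO library 1, control 4 or control 5, and Chac2 under DESeq2.

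Between control and naive libraries the same list of other ATF4 targets had 30 of 43 genes higher and 7 lower, beside 32.5% and 39.0% over all genes, with medians of 0.65 for the list and -0.08 for all genes. Genes of amino acid synthesis and tRNA charging made up most of the rises: 9 of 10 enzymes and 13 of 13 genes of tRNA charging and export were higher. Psat1, the serine synthesis aminotransferase, stood at 332 ± 20.8 CPM in the controls and 130 ± 21.2 CPM in the naive libraries (SD, n = 8 each, adjusted p = 3.27e-10, edgeR), and the alanyl-tRNA synthetase Aars at 299 ± 19.1 CPM in the controls and 160 ± 21.4 CPM in the naive libraries (adjusted p = 6.53e-09, edgeR). Of 11 stress regulators 3 were higher and 5 lower, with a median log2 fold change of -0.0078. Ppp1r15a, like Ddit3, was lower in the controls, at 13.3 ± 1.899 CPM against 34.5 ± 3.42 CPM in the naive libraries (SD, n = 8 each; log2 fold change -1.37, SE 0.09, adjusted p = 2.42e-10, edgeR). Atf3 differed by -2.57 on the log2 scale (SE 0.53, adjusted p = 0.00028, edgeR) at under 2 CPM in the mean of either group. The IRE1 and ATF6 arms had 12 of 18 genes higher and 4 lower, and Hspa5 stood at 1978 ± 154 CPM in the controls and 1116 ± 165 CPM in the naive libraries (SD, n = 8 each, adjusted p = 4.9e-08, edgeR). Of 17 genes of the eIF2 machinery 13 were higher and 1 lower, of 12 p53 targets none was higher and 5 were lower, and of 12 relatives of the members 3 were higher and 5 lower. Sesn1 and Sesn3, the other sestrins, fell by 2.24 (SE 0.13, adjusted p = 6.75e-11) and 1.303 (SE 0.09, adjusted p = 5.77e-10, edgeR) on the log2 scale, where Sesn2 was higher.

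The genes whose levels most resembled those of Atf4 and Asns were sought among 9260 other abundant protein-coding genes over all 18 libraries, as a description that the group differences dominate. Nearest to Atf4 were Serpinb1a (Pearson's r = 0.94), the mitochondrial Decr1 (0.91), Fmc1 (0.90), and the RNA-processing genes Zranb2 (0.90) and Cstf3 (0.90). Asns itself ranked 4 in likeness to Atf4 (r = 0.90) and Eif4ebp1 ranked 30 (0.86), while Ddit3 ranked 7357 (-0.56). Nearest to Asns were the list genes Tars (0.97), Shmt2 (0.96) and Nars (0.95), with the initiation factor subunit Eif3c (0.97) and 2610318N02Rik (0.95). Tars stood at 285 and 295 CPM in the Tra2bKO libraries, 221 ± 15.2 CPM in the controls and 162 ± 11.1 CPM in the naive libraries (SD, n = 8 each). Serpinb1a, a protease inhibitor, stood at 29.7 and 39.1 CPM in the Tra2bKO libraries, 9.77 ± 3.15 CPM in the controls and 4.49 ± 0.970 CPM in the naive libraries (SD, n = 8 each).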

How the data were processed

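The 18 libraries were made from CD8+ T cell RNA with a kit for small inputs that primes on polyA tails, per the labels. The deposited tables hold estimated counts per gene and per transcript, written as whole numbers by the authors and not normalized. The aligner STAR 2.7.1a, StringTie 2.1.0 for assembly, the SAMtools 1.9 utilities, DESeq2 1.30.1 under R 4.0.5, and the builds mm39 and mm10, are named without their roles, per the submitters' processing notes. Rows with numeric identifiers (26248 of 81881, 0.0513 to 0.132% of the counts) name no gene and were left out. The 97 spike-in rows hold 0 counts.

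Within each comparison, genes kept by filterByExpr at a minimum count of 10 were tested in R 4.3.3 by the robust quasi-likelihood method of edgeR 4.0.16 after TMM scaling, with fold changes shrunk by a prior count of 2 and Benjamini-Hochberg adjustment over all genes and a call under 0.05. SE is the log2 fold change divided by the root of its F statistic. Levels are CPM scaled by TMM over all 18 libraries, so ratios of printed means can differ slightly from fitted changes. TPM were computed from transcript counts and GENCODE M21 lengths. Transcript shares were compared by exact permutation over 12870 splits, for transcripts of at least 5% of a gene with a mean of at least 100 counts. Motifs were searched in RefSeq windows with Python 3.11.15.

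Members and gene lists were chosen with earlier results of these data known. The rule for named genes was all members, then up to 4 genes with the smallest p of each list in each comparison, of which a part is printed, and 5 genes most like Atf4 and Asns. Psat1, Phgdh, Ppp1r15a, Atf3, Hspa5, Eif2ak3 and Sesn1 in Tra2bKO against control, and Atf3 in control against naive, lie outside that rule and were chosen after their values were seen. The list names Mars1 and Gcn1 were matched as Mars and Gcn1l1. Counting intervals and limits from 0 cover counting error only. The gene and share tests were tested on simulated data. Alternatives were another tool (DESeq2 1.42.0), scaling by RLE or by total counts, testing without the low-count filter, all groups in one fit, the replicate number as a block, controls 3 to 8 only, a correction for exon length and GC, and leaving out each library. Replicate numbers were not used as pairs. One B cell marker and one red cell marker are not reported here, and the sums and counts of those lists leave them out.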

Additional observations from a re-analysis of the deposited data

Results flagged for a closer look

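Of 38 groups of 8 libraries examined, over member levels and tested transcript shares, 8 held a library whose gap to its neighbour was too large a part of the group's range by Dixon's 95% critical value, where chance flags about 1 in 20 groups. Control 4 was highest for Ddit3 (10.4 CPM, next control 7.78 CPM) and for Atf5 (0.988 CPM, next 0.573 CPM), and control 2 was lowest for Trib3 (2.07 CPM, next 3.59 CPM). Control 7 had the lowest share of Atf4-201 (79.4%) and the highest of Atf4-203 (20.3%), 2 shares that mirror each other. Trib3-201 was lowest in control 6 (98.15%) and in naive 7 (86.3% of only 73 Trib3 counts), and Pck2-207 was lowest in naive 1 (14.7%). The member differences were fitted without each of these libraries, and no call between control and naive was lost.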

How the results depend on the processing

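In control against naive the calls of Atf4, Asns, Trib3, Sesn2 and Ddit3 and their directions held under all 24 alternatives, with log2 fold changes between 0.12 and 0.26, 1.78 and 2.1, 0.76 and 1.07, 0.48 and 0.75, and -1.52 and -1.38. In Tra2bKO against control the fitted changes of 8 members stayed positive under all 18 alternatives, and Atf5 ran from -0.59 to 0.45. Leaving out 1 library gave 651 to 2858 genes called (2772 in all), 304 to 1459 higher (1421) and 347 to 1406 lower (1351), and 7 to 21 of the other ATF4 targets higher (18), the lowest of each without Tra2bKO library 2. The single remaining Tra2bKO library is then assumed to vary like the controls. The share of calls that were higher was 51.3%, against 60.7% without library 1, 55.2% with RLE factors and 45% with the length and GC trend removed. In control against naive it was 45.4%, against 39.5% with total counts only. With the replicate block, edgeR called 0 genes in Tra2bKO against control (0 higher, 0 lower, 0 and 0 of the other ATF4 targets, with 3536 genes at an unadjusted p under 0.05). In that fit only the 2 same-numbered pairs inform the comparison. Almost no residual freedom is left, so the fit had little power to call any gene. Residuals of same-numbered libraries gave no sign of pairing. They correlated at -0.04 to 0.05 for control and naive and at 0.01 and 0.06 for Tra2bKO and control. The residuals of the 2 Tra2bKO libraries mirror each other, so the check cannot exclude pairing in that comparison. With the block 0 transcript shares passed, against 1 in the main test. The block test flips signs within the 8 same-numbered pairs. These give too few patterns for 1 transcript alone to pass after adjustment over 10, so nothing is read from that loss. Differences in transcript share near 0 turned sign: leaving out 1 library gave -0.11 to 1.85 points for Trib3-201, -2.19 to 2.47 for Pck2-207 and -4.96 to 1.51 for Pck2-210, and controls 3 to 8 gave 4.36 for Pck2-210. The causes were not tested. Depth limits Chac1, Atf5 and Vldlr, with at most 311, 87 and 7 counts in a library.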
